A study of Daphnia magna with 30 samples.

Results

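DM13474P3 is a single probe of a Daphnia magna expression array, which the study annotated as C1q adipose specific-like protein, and it was selected by its name and for the course of its level over 5 photoperiods, with the highest level in short days of 8 h light. It was 1 probe of 14338 measured, it was printed as 1 spot per array, and no other probe of the array belonged to the same target. Daphnia magna is a planktonic freshwater crustacean that reproduces clonally, and the cultures of the study were started from 1 individual, so the animals were of a single clone. Whole adult females, 21 days old and kept at 25 °C, came from the control photoperiod, 16L:8D (hours of light and hours of dark), from the shorter days 12L:12D, 8L:16D and 4L:20D, or from the longer day 20L:4D. From each of the 3 chambers of a photoperiod, which held 20 animals, 2 were taken (A and B) and put on 1-colour arrays individually, for a total of 30 arrays with 6 per photoperiod. All chambers of a photoperiod shared 1 light-proof box, and the effects of box and photoperiod cannot be told apart. Collection followed within about 1 h of light onset, and the length of the dark phase before it and that of the day cannot be told apart. Any brood, eggs or neonates, that a female carried was part of her sample. In whole animals, fewer cells of a type and less RNA per cell cannot be told apart.

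C1q-domain proteins are secreted proteins with a globular C1q head, often preceded by a collagen-like stretch, that assemble into trimers and larger complexes. In mammals the family includes the complement component C1q, which binds antibodies and microbial surfaces, and adiponectin, a hormone of fat tissue with actions on metabolism. In bivalve molluscs C1q-domain proteins are known as recognition molecules of innate immunity. The function of the Daphnia transcript is not known from the sources used here, and the annotation is a name by sequence likeness.

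The oligonucleotides behind the values are shown for DM13474P3, for both probes that the study annotated as C1q and tumor necrosis factor-related protein 3-like protein, for the C-type lectin probe that is described with them, and for DM03747P3, the probe that shared the longest stretch with DM13474P3. They were taken from the study's probe table and are written 5′ to 3′ in the order of that table. Capitals mark the stretch of 12 bases of DM13474P3 that is found, as its reverse complement, in DM03747P3.
DM13474P3: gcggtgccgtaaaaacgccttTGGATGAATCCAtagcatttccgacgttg
DM08519P3: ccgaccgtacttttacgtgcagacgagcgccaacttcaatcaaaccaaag
DM11875P2: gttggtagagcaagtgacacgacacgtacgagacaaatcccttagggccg
DM08499P2: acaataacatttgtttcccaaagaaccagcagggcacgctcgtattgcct
DM03747P3: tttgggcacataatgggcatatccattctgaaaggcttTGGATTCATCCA

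The DM13474P3 oligonucleotide is 50 bases long with 50% G and C, against a median of 48% among the 953 probes with a sequence in that table. The longest stretch shared between DM13474P3 and DM08519P3 was 7 bases, and between DM13474P3 and DM11875P2 it was 5 bases, so the 3 C1q probes were distinct oligonucleotides. The 12-base stretch was the longest shared with any of the other probes with a sequence, and 1 probe had it. That probe, DM03747P3, annotated as a putative TFIID subunit of the general transcription machinery and named after its values were seen, did not follow DM13474P3 over the 30 arrays (Pearson's r = -0.04). Its highest mean log2 level was -3.36 in 4L:20D and its level in 8L:16D was -3.40. None of the array's names matched the gene table available, so the genome position of the target and its exons are not given here.

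The target of DM13474P3 was at the lower end of what the arrays detected. A signal is called well above background when the image software finds it clearly brighter than the surroundings of the spot. DM13474P3 was well above background in 6 of 6 animals of 8L:16D and in 4 of 6 of 12L:12D, but in 1 of 6 at each of the other photoperiods, or 13 of 30 in all. No other of the 14338 probes was well above background in all 8L:16D animals and in at most 1 animal of each of those photoperiods, a pattern that 0.00697% of probes had. This comparison used the values that chose the probe and is a description.

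The processed signals, in the intensity units of the scanner after background subtraction, show the same course. In 8L:16D the lowest, median and highest signals were 20.0, 24.6 and 32.9. In 12L:12D they were 6.20, 14.0 and 24.2. The 16L:8D control had 2.70, 6.03 and 12.2. Every 8L:16D animal was thus brighter than every control animal, whereas the 12L:12D animals spanned the gap between these groups. In 4L:20D the lowest, median and highest signals were 2.75, 5.09 and 13.4, and in 20L:4D they were 2.02, 5.90 and 11.8. The shortest and the longest day thus gave nearly the same low range. The mean signal was 25.1 ± 4.93 in 8L:16D against 7.15 ± 3.55 in the control (SD, n = 6 each), a ratio of 3.51.

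**Figure D1:**
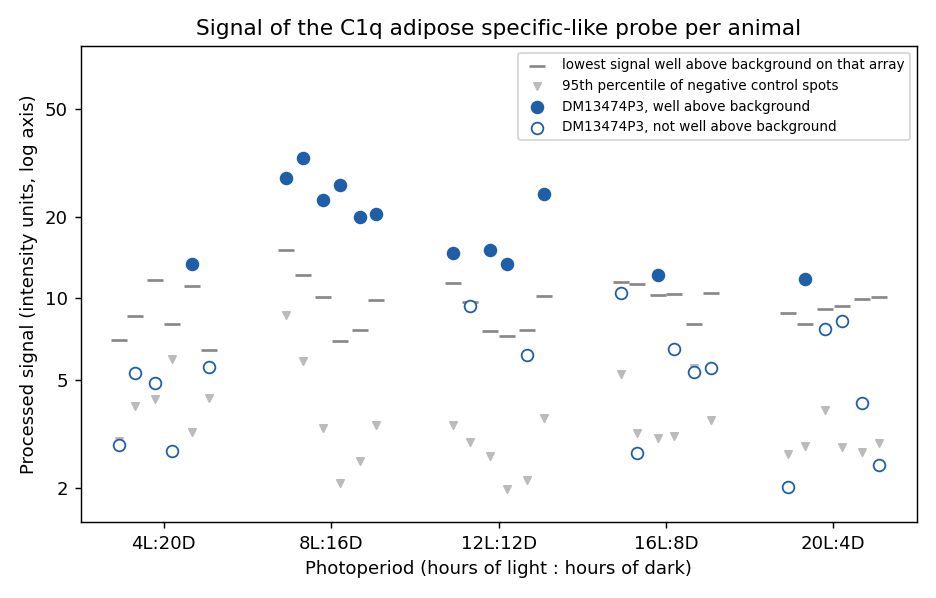
Processed signal of DM13474P3 in each of the 30 animals (intensity units, log axis) by photoperiod, 6 animals each, ordered by chamber and letter. Filled points are well above background and open points are not, bars give the lowest signal well above background on the same array and triangles the 95th percentile of its negative control spots. All 6 animals of 8L:16D are filled and lie at 20.0 or above, and 1 animal is filled at each of the shortest, the control and the longest day.

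The dim values need to be read against the noise of the arrays. On 4 arrays, namely 1 from 4L:20D, 2 from 20L:4D and 1 of the control, the signal was not significant by the software's own test, and the value in the file stood at 1.02 times its estimated error. On 6 arrays, 2 each from the same photoperiods, the signal was at or below the 95th percentile of the 77 negative control spots. In 8L:16D every signal was 6.37 to 8.36 times its error, and in 12L:12D 3.22 to 6.96 times. The median ratio of the signal to that percentile of the negative controls was, in order of day length from 4L:20D to 20L:4D, 1.22, 6.45, 5.00, 1.77 and 1.75. The levels of 8L:16D were therefore measured. In 12L:12D the signal was significant on all 6 arrays, of which 4 were well above background. Most levels of the other photoperiods are near the limit of what an array can measure.

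For comparison between animals, the expression level was the log2 of the processed signal minus that of the array's 75th percentile, so that 0 is a bright spot and DM13474P3 lies below it. Levels were highest in 8L:16D, at -4.33 ± 0.47, then 12L:12D at -5.44 ± 0.65, 16L:8D at -6.09 ± 0.73, and 4L:20D and 20L:4D, both at -6.58, with SDs of 0.81 and 0.83 (n = 6 in each). The level thus rose from 4 h to 8 h of light and was lower at each longer day, a non-monotone course. The highest 16L:8D animal was at -5.18 and the lowest 8L:16D animal at -4.74, so these groups did not overlap. The 12L:12D animals lay between -6.48 and -4.53 and overlapped with every photoperiod.

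The differences are given with the standard error of the fit across all probes and a 95% interval, with no test, since the probe was chosen for them. Both treat the animals of a photoperiod as independent and do not cover differences between boxes. The level in 8L:16D was 1.76 log2 units above 16L:8D (SE 0.39, interval 0.94 to 2.57), a 3.38-fold difference. It was 2.24 log2 units above 4L:20D (interval 1.43 to 3.06) and as far above 20L:4D, and in each of these comparisons, as against 16L:8D, all 36 pairs of animals had the 8L:16D animal higher. Against 12L:12D it was 1.11 log2 units higher (interval 0.30 to 1.92), or 2.16-fold, and 33 of 36 pairs ran that way. Of 14211 probes with a value on all arrays, 0.598% lay in 8L:16D wholly above 4L:20D, 0.436% wholly above 16L:8D and 0.802% wholly above 20L:4D, and nothing is read from these shares. Only DM08771P2, a probe that is named after its values were seen, also lay in 8L:16D above all animals of these 3 photoperiods, a pattern of 0.0141% of probes, with a level of -1.40 ± 0.09 in 8L:16D against -1.75 ± 0.33 for the control. Wholly above 12L:12D, where DM13474P3 overlapped, lay 1.18%.

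Among the other photoperiods the order was less sharp. At 12L:12D the level was 1.13 log2 units above 4L:20D (interval 0.32 to 1.95) and as far above 20L:4D, and it was 0.65 above 16L:8D (interval -0.17 to 1.46). The level in 16L:8D was 0.49 log2 units above 4L:20D, with an interval from -0.33 to 1.30, and 0.49 above 20L:4D. The intervals of the control against 12L:12D, its upper neighbour in this order, and against 4L:20D and 20L:4D, its lower neighbours, included differences of both signs. The means of 4L:20D and 20L:4D were level with each other. These differences too were not tested. The height of 8L:16D over its neighbours in day length, taken as 8L:16D minus the mean of 4L:20D and 12L:12D, was 1.68 log2 units (SE 0.34, interval 0.97 to 2.38). A difference at least as large was found in 1.56% of probes, and 31.1% of probes had their highest mean in 8L:16D.

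The size of the difference depends on how values near background are treated. When each signal below the array's lowest well-above-background signal was raised to that signal, an alternative chosen after seeing the data, 8L:16D was 1.03 log2 units above 16L:8D, or 2.04-fold, and 1.41 above 4L:20D and 1.26 above 20L:4D. With these values 12L:12D was at -5.39 and 16L:8D at -5.36, so that 12L:12D was no longer above the control, and 8L:16D stayed highest. After normexp background correction, in which 50 units are added to every spot, the difference from 16L:8D was 0.30 log2 units (SE 0.07). Without the 4 arrays that had no significant signal, which was also chosen after seeing the data, it was 1.54. The 8L:16D level had the highest mean under each of these treatments.

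**Figure D2:**
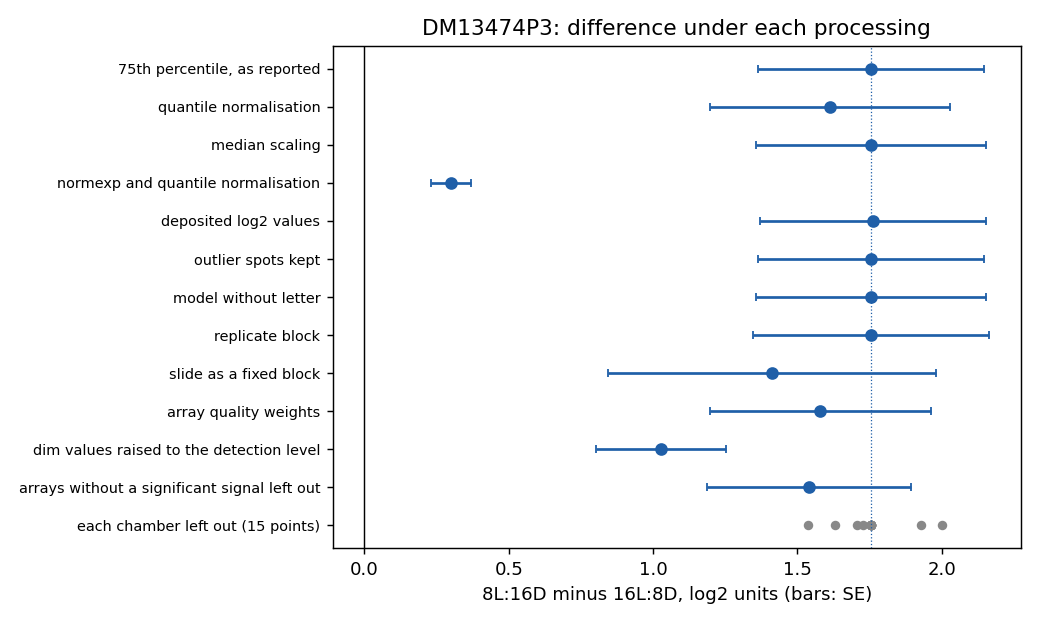
Difference of DM13474P3 between 8L:16D and 16L:8D (log2 units, bars are SE of the fit) under each way of processing, and in the lowest line with each of the 15 chambers left out in turn. All points lie above 0; normexp gives 0.30, raising dim values to the detection level 1.03, and the chambers left out give 1.54 to 2.00.

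The level was set beside 3 measures of the array, and no correlation passed an adjusted p of 0.05. The permutations shuffled the arrays across photoperiods, and the level includes the course for which the probe was chosen. No conclusion is therefore drawn from these p-values. The 75th percentile of the processed signal was 359 to 643 units over the 30 arrays, and the mean of this percentile was 506 for 8L:16D against 437 for the control. The share of probes well above background was 70.1% to 90.0% per array, with means of 83.0% for 8L:16D against 78.5% for the control. Over the 30 arrays the level of DM13474P3 had Pearson's r = 0.20 with the 75th percentile (permutation p = 0.296, adjusted p = 0.492 over 3 relations, Spearman's rho = 0.21, p = 0.262), and r = 0.40 without the 2 arrays farthest from the median. With the share of probes well above background r was 0.19 (permutation p = 0.328, adjusted p = 0.492, rho = 0.12, p = 0.512), and with the median of the negative control spots 0.04 (permutation p = 0.816, adjusted p = 0.816, rho = 0.09, p = 0.65). Without the 2 arrays farthest from the median these were 0.17 and -0.05. Each median here, also for the 0.40, is that of the array measure. No p was computed for any r without such arrays. After removal of the photoperiod means the 3 correlations were 0.05, -0.03 and 0.06.

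The 30 arrays were spread over 9 slides, and the 8L:16D animals lay on 4 of them. On each of these slides the lowest 8L:16D animal was above the highest animal of the other photoperiods on the same slide. The pairs of values were -4.62 and -6.28 on the first, -4.69 and -5.30 on the second, -4.74 and -5.16 on the third, and -3.71 and -6.77 on the fourth. The order on each slide was nearly fixed by the levels, since every 8L:16D animal lay above all animals of the shortest, the control and the longest day. The only other animal within their range, at -4.53 in 12L:12D, was on a slide without 8L:16D animals. With slide as a block, 8L:16D was 1.41 log2 units above 16L:8D (SE 0.57). Only 1 control animal shared a slide with 8L:16D animals, so few direct comparisons within a slide stand behind that value. An effect of slide was not tested.

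The animals of a photoperiod differed widely, also within a chamber. In 8L:16D the 2 animals of each chamber had levels of -4.46 and -3.71, -4.69 and -3.78, and -4.62 and -4.74 (letter A first). All 6 lay between -4.74 and -3.71. In 12L:12D the levels were -5.29 and -5.79, -5.27 and -5.30, and -6.48 and -4.53. The last chamber thus held the lowest and the highest 12L:12D animal, with signals of 6.20 and 24.2, and the latter overlapped with 8L:16D.

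In 16L:8D the levels were -5.67 and -7.38, -5.18 and -6.02, and -6.12 and -6.16. The first chamber held the lowest control animal, with a signal of 2.70 that was not significant, against 10.5 in its mate. In 4L:20D the levels were -6.97 and -6.52, -6.77 and -7.61, and -5.16 and -6.43, where the one animal above -5.2 was the one that was well above background. In 20L:4D they were -7.48 and -5.26, -6.28 and -6.28, and -6.77 and -7.40. In its first chamber the signals were 2.02 and 11.8, of which the lower was not significant, so the gap of 2.22 log2 units between these mates rests on a value at background.

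**Figure D3:**
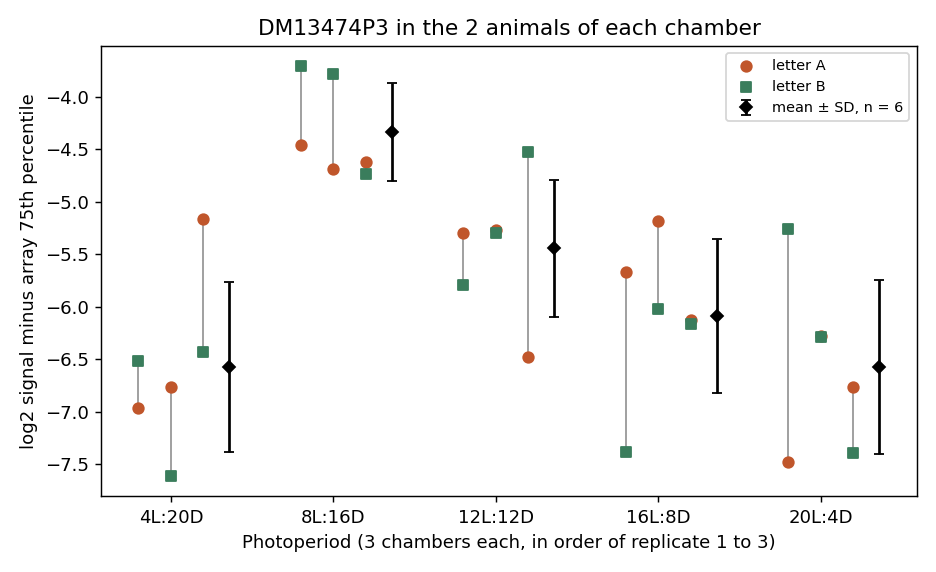
Level of DM13474P3 (log2 signal minus the array's 75th percentile) in each animal by photoperiod, with a line linking the 2 animals of a chamber (circle letter A, square letter B). Diamonds are means and bars SD over 6 animals; the 8L:16D animals lie between -4.74 and -3.71, and mates differ by 0.0031 to 2.22, where the larger gaps can rest on values at background.

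Over the 15 chambers, mates differed by a median of 0.75 log2 units, and the mean square between chambers of a photoperiod was 0.41 against 0.57 between mates. The estimated share of the variance that lay between chambers was below 0 (-0.16), so the estimate shows no greater likeness of mates than of animals from different chambers. The pooled SD within photoperiods was 0.71 log2 units. This was above the median of 0.47 over all probes, at percentile 73.7, but near the median of 0.74 among the 1135 probes within 0.5 log2 units of the same mean level, at percentile 45.9. The spread between animals was thus that of other probes as dim.

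The letter of the animal was not used in the choice of the probe and could be tested. The study drew the animals of a chamber at random, and no meaning of the letter shared between chambers is given. The test by letter therefore says nothing about the spread between animals. The mean level was -5.81 in animals lettered A and -5.79 in animals lettered B, a difference of -0.02 (SE 0.25, 95% interval -0.53 to 0.49, limma adjusted p = 0.992). Letter A was the higher in 10 of 15 chambers. The interaction of letter and photoperiod had a limma adjusted p of 0.999. By letter 0 probes passed an adjusted p of 0.05, while 1.9% had an unadjusted p under 0.05.

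The other C1q-annotated probes had means in 8L:16D that lay within 1 SD of those in 12L:12D and in the control. DM08519P3 and DM11875P2, both named for C1q and tumor necrosis factor-related protein 3, a secreted C1q-domain protein of mammals, were bright and well above background on all 30 arrays. They followed each other with r = 0.99 over the 30 arrays, so their values are hardly independent. DM08519P3 had mean log2 levels, in order of day length from 4L:20D to 20L:4D, of 1.20 ± 0.96, 1.91 ± 0.93, 2.23 ± 0.64, 1.82 ± 1.27 and 0.56 ± 1.75 (n = 6 each). The ranges of all photoperiods overlapped, and the order of 8L:16D and 12L:12D turned on 1 animal: without letter B of the second 8L:16D chamber, at 0.15, the 8L:16D mean was 2.26. The median was 2.18 in 8L:16D against 1.98 in 12L:12D. DM11875P2 was at 1.46 ± 0.90 in 8L:16D, 1.80 without the same animal, at 1.80 ± 0.66 in 12L:12D, and lowest, at -0.06 ± 1.61, in 20L:4D. The 8L:16D level was 0.09 log2 units above 16L:8D for DM08519P3 (SE 0.58, limma adjusted p = 0.959) and 0.12 for DM11875P2 (SE 0.55, adjusted p = 0.941). Without single chambers these differences ranged from -0.32 to 0.55 and from -0.27 to 0.56. In 20L:4D the levels were 1.26 and 1.40 log2 units below the control, with an adjusted p of 0.935 each.

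Over the 30 arrays Pearson's r with DM13474P3, which includes the photoperiod course and is given without a test, was 0.52 for DM08519P3 (rho = 0.57) and 0.54 for DM11875P2 (rho = 0.61). Without the 2 arrays farthest from the median of the respective C1q probe r was 0.43 and 0.46. Within photoperiods it was 0.47 for each. In the test of each probe on DM13474P3 within photoperiod and letter, which was run over all probes, the limma adjusted p was 1.00 for both and the unadjusted p 0.0259 and 0.0244. An association between animals of a photoperiod was thus not called. Letter B of the second 8L:16D chamber had -3.78 for DM13474P3, the second highest of that photoperiod, and 0.15 for DM08519P3, the lowest. The lowest level of DM13474P3 was -7.61, in letter B of the second 4L:20D chamber. This animal had a DM08519P3 level of 1.47, above the mean of its photoperiod. Others ran with the correlation. Letter A of the first 20L:4D chamber was the lowest of its photoperiod for both probes, at -7.48 and -2.39. Its mate was the highest for both, at -5.26 and 2.82. Letter B of the first 16L:8D chamber was the lowest for both, at -7.38 and -0.21. The DM13474P3 signals of these low animals were not significant, and r within photoperiods was not computed without them.

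**Figure D4:**
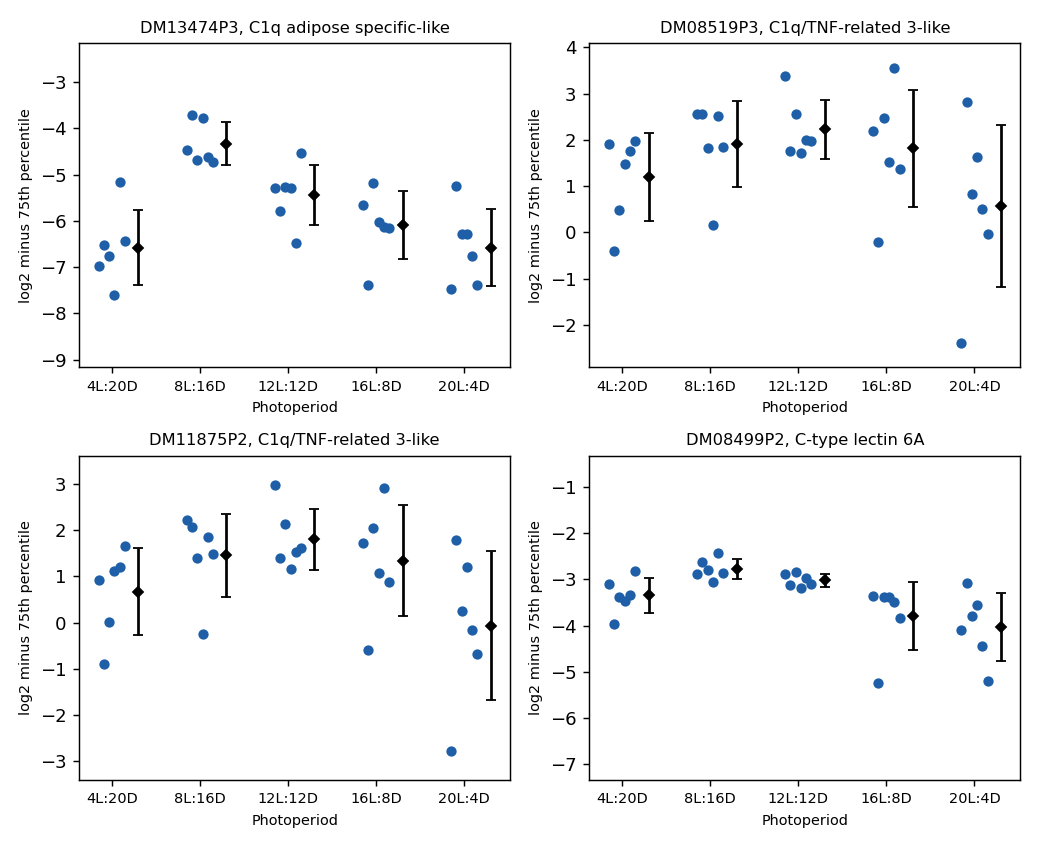
Levels of DM13474P3, the 2 other C1q-annotated probes and the C-type lectin probe in each animal by photoperiod (log2 signal minus the array's 75th percentile, each axis spanning the same number of log2 units). Points are animals, and diamonds with bars are mean and SD over 6 animals; DM13474P3 and the lectin have their highest mean in 8L:16D. The other C1q probes have theirs, 2.23 and 1.80, in 12L:12D, but without the low 8L:16D animal the 8L:16D means are 2.26 and 1.80.

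C1q-domain proteins share binding and structural features with lectins and collagens, so 11 probes with such annotations were set beside DM13474P3: the 2 C1q probes, 2 lectins, 6 collagens and a laminin. All 11 had been called by the study in one of its trials, some on these arrays, so their direction is not independent evidence, and 4 of the collagen probes carry the same name. Against 16L:8D, 10 of the 11 were higher in 8L:16D and 1 lower, and 10 were higher under every scaling tried. The median difference was 0.79 log2 units against 0.02 over all probes. The share of all probes that were higher was not counted, so nothing is read from the count of 10. With limma 0 of the 11 passed an adjusted p of 0.05, which 0% of all probes passed as higher and 0.0139% as lower. At an unadjusted p under 0.05, 3 were higher and 0 lower, against 6.65% and 7.5% of all probes. For 4L:20D, 5 were higher and 6 lower, and 0 were called, against 0.00697% of all probes called higher and 0.0488% lower by the adjusted p and 2.71% and 6.14% by the unadjusted p. For 12L:12D, 5 were higher and 6 lower, with 0 called by the adjusted p, as among all probes (0%), and 1, the C-type lectin, higher at an unadjusted p under 0.05, where 0.97% of all probes were higher and 4.95% lower. For 20L:4D, 3 were higher and 8 lower, with 0 called by the adjusted p (0% of all probes) and 2, the C1q probes, lower at an unadjusted p under 0.05, where 1.51% of all probes were higher and 3.77% lower. After median scaling the higher counts were 6 for 4L:20D and 7 for 12L:12D, and after quantile normalisation 6 and 8. With normexp they were 6 for each of these photoperiods and 5 for 20L:4D.

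The lectin DM08499P2, annotated as C-type lectin domain family 6 member A, in mammals a receptor of innate immune cells for fungal sugars, had the course most like DM13474P3 among them. Its levels were, in the same order of day length, -3.34 ± 0.38, -2.77 ± 0.22, -3.02 ± 0.14, -3.78 ± 0.74 and -4.03 ± 0.74 (n = 6 each). All 8L:16D animals, between -3.05 and -2.42, were above all 16L:8D animals, of which the highest was at -3.36. This held for 0.436% of the probes with a value on all arrays. The difference was 1.01 log2 units (SE 0.30, limma adjusted p = 0.245). It includes 1 control animal, letter B of the first chamber, at -5.24, where the others had a mean of -3.49. This animal and letter B of the third 20L:4D chamber, at -5.21, were not well above background for the lectin. Neither had a significant DM13474P3 signal. Over the 30 arrays r with DM13474P3, again a description, was 0.69 (rho = 0.72). It was 0.65 without the 2 arrays farthest from the median of the lectin and 0.54 within photoperiods. In the fit over all probes the adjusted p of that association was 0.897. The endoplasmic reticulum lectin DM04342P3, of the secretory pathway by its name, was 0.16 log2 units below the control in 8L:16D (SE 0.17) and was the list's only probe that was not higher.

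All 7 matrix probes had a higher mean in 8L:16D than in the control, a count without the share over all probes. Several of the differences were about as large as their SE or smaller, and they were not tested against each other. Collagen XVIII (DM05241P2), a basement membrane collagen in mammals, was at -1.67 ± 0.35 in 8L:16D against -2.46 ± 0.45 for the control, 0.79 log2 units apart (SE 0.24, limma adjusted p = 0.253). Laminin beta-1 (DM05084P2), a subunit of the basement membrane glycoprotein laminin, was 0.87 higher (SE 0.29, adjusted p = 0.264). The 4 collagen IV probes, for the network-forming collagen of basement membranes, were higher by 1.49 (DM00434P4), 1.31 (DM05282P3), 0.39 (DM05719P1) and 0.54 (DM12010P3), with SEs of 1.38, 0.72, 0.39 and 0.79. Collagen XXIV (DM12303P2), a fibrillar collagen, was 0.80 higher (SE 1.28) and was well above background on 7 arrays only. Of the collagen IV probes, DM00434P4 was well above background on 22 arrays and DM12010P3 on 17. Between animals of a photoperiod and letter, the partial correlations with DM13474P3 were 0.03 for collagen XVIII, -0.06 for laminin, -0.22 for collagen XXIV and -0.17 to -0.08 for collagen IV, all with a limma adjusted p of 1.00.

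Transcripts of moulting and egg provisioning were set beside the spread between animals, since 21-day-old females moult and carry broods. Among 11 targets picked out by function in the study, which also include rhodopsins and a testis development protein, all were found on the arrays. The study's table for this trial held 8 of the probes, and the others were matched only by the start of the probe name. All 11 had a limma adjusted p of 1.00 for an association with DM13474P3 within photoperiod and letter. Many values of DM13474P3 were near background, which limits what this fit could find, so an association is not excluded. The partial correlation was -0.30 for chitin deacetylase (DM03120P2), an enzyme that modifies chitin of the cuticle, and -0.09 for vitellogenin fused with superoxide dismutase (DM00375P2), a yolk protein precursor. Vitellogenin had its highest mean in 8L:16D too, 2.12 ± 0.54 against 1.88 ± 0.17 in 16L:8D, and its r with DM13474P3 over the 30 arrays was 0.30. The highest partial correlation of the 11 was 0.31, for DM13721P2, annotated as brain chitinase and chia, with r = 0.61 over the 30 arrays.

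Over all probes, 0 of 14337 varied with DM13474P3 within photoperiod and letter at a limma adjusted p of 0.05, while 3.2% had an unadjusted p under 0.05 in the same direction and 0.97% in the opposite direction. The test without moderation also called 0 probes, whereas 16 were called after quantile normalisation. The smallest adjusted p was 0.266. Here too the error of the dim DM13474P3 values limits what the fit could find. The highest partial correlations were those of DM04065P2 (0.79), DM01618P1 (0.77), DM02627P2, DM05567P1 and DM02293P1 (0.72 each), which the study's table does not annotate. DM04065P2, of which the unadjusted p was 1.92e-05, had levels, by day length, of 0.88 ± 0.48, 1.31 ± 0.16, 1.38 ± 0.11, 1.02 ± 0.36 and 0.54 ± 0.77. The lowest were DM01008P2 (-0.66), DM02972P1 (-0.65) and DM14218P1 (-0.61). DM02972P1, annotated as an endoglucanase, an enzyme that cuts cellulose-like chains, had its lowest level in 8L:16D, -2.14 ± 0.30, and its highest in 20L:4D, -1.03 ± 0.74.

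By Pearson's r over the 30 arrays, which includes the photoperiod course and is a description, the probes most like DM13474P3 were DM06383P2 (0.80), DM02017P1 (0.80), DM10172P1 (0.76), DM02369P2 (0.76) and DM05384P3 (0.74), among 10924 probes well above background on at least 24 arrays. All 5 are without an annotation in the study's table, and all had their highest mean in 8L:16D. From 4L:20D to 16L:8D, by day length, DM06383P2 was at -2.12 ± 0.50, -1.28 ± 0.19, -1.53 ± 0.14 and -1.71 ± 0.29, and its mean in 20L:4D lay between those of 16L:8D and 4L:20D. The order of its means was thus that of DM13474P3, in which 4L:20D and 20L:4D were level. Its range of means, less than 1 log2 unit, was smaller than that of DM13474P3. Without the 2 arrays farthest from the median of DM13474P3 itself r was 0.81. Over all candidates r was above 0.5 for 289 and below -0.5 for 167.

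**Figure D5:**
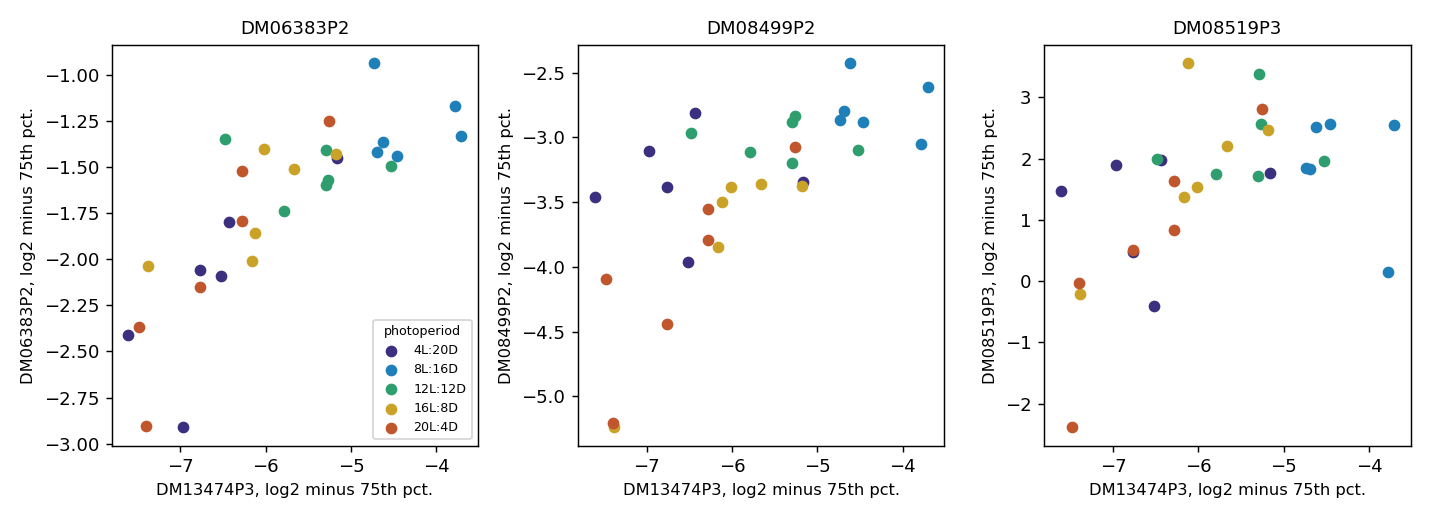
Level of DM06383P2, the C-type lectin DM08499P2 and the C1q probe DM08519P3 against that of DM13474P3 in the 30 animals, coloured by photoperiod (both axes log2 signal minus the array's 75th percentile). Pearson's r is 0.80, 0.69 and 0.52; in the right panel 1 animal of 8L:16D lies apart, at 0.15.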

How the data were processed

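Expression was measured in 30 individual Daphnia magna on 1-colour Agilent arrays, from 80 ng of total RNA labelled with Cy3. The deposited intensity values are Agilent Feature Extraction output (version 10.7.3.1 per the file headers, 9.5.1 per the labels), with the background subtracted and not scaled between arrays. Deposited log2 values, which the authors had scaled by 75th percentile and then by median, served as an alternative. From the log2 processed signal, that of the array's 75th percentile (15208 non-control spots) was subtracted. Spots of a probe were averaged, and 222 outlier spots were left out, none of DM13474P3. No spot was saturated.

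In R 4.3.3, limma 3.58.1 was fitted to all 30 arrays, with photoperiod, letter and their interaction, and p-values were adjusted by Benjamini-Hochberg over all probes. The 3 correlations with array measures were tested with 100000 permutations, two-sided, in Python 3.11.15, and adjusted by Benjamini-Hochberg over the 3. Ranks for Spearman's rho came from scipy 1.17.1. The fits were tested on simulated data. Partial correlations had 19 degrees of freedom. The replicates were separate animals. The number of arrays limits the precision.

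The probe and the lists were chosen with earlier results of these data known. Named probes are DM13474P3, the list of 11 probes, chitin deacetylase and vitellogenin, and, among probes well above background on at least 24 arrays, the 5 with the highest r, the 5 highest and the 3 lowest by partial correlation. Probes named otherwise are marked as such in the text, except DM13721P2, which was added after its value was seen.

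The alternatives were quantile and median scaling, normexp (offset 50, on median and local background signals) with quantile normalisation, the deposited log2 values, outlier spots kept, a filter of 6 arrays well above background, no letter, replicate, chamber or slide blocks, no moderation, array weights, and each chamber left out. Animals of different photoperiods with the same replicate number did not deviate together: correlations of the 30 pairs of chambers ran from -0.67 to 0.42, and 8 were over 0.1.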

Additional observations from a re-analysis of the deposited data

Results flagged for a closer look

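Of 30 groups of 6 animals examined (6 probes in each of 5 photoperiods), 3 held an animal far from its group, and chance marks about 1 in 20 groups. In 8L:16D, letter B of replicate 2 had a DM08519P3 level of 0.15 against a mean of 2.26 in the other animals, and a DM11875P2 level of -0.25 against 1.80. These are 1 animal and probes that ran together. In the same animal DM13474P3 was at -3.78 and did not stand apart, and 84.2% of the probes of this array were well above background. In 16L:8D, letter B of replicate 1 had a level of the C-type lectin DM08499P2 of -5.24 against a mean of -3.49 in the others. On this array 79.6% of probes were well above background. The animal was also the lowest of its photoperiod for DM13474P3, at -7.38, from a signal that was not significant. No group of DM13474P3 itself held such an animal. The interaction of letter and photoperiod passed the test in none of the 6 probes (smallest limma adjusted p 0.999).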

How the results depend on the processing

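The 8L:16D level of DM13474P3 stayed above 16L:8D under all 26 alternatives and moved beyond the spread in 2: to 0.30 log2 units with normexp and 1.03 with dim values raised to the detection level, chosen after seeing the data, from 1.76. Without single chambers it was 1.54 to 2.00. The height over 4L:20D and 12L:12D, 1.68, moved to 0.22 with normexp and was 1.52 to 1.87 without single chambers. Normexp adds 50 units to signals that were at most 32.9 after background subtraction. With the replicate block the differences remained 1.76 and 1.68; the numbers do not pair the animals, and the block changed no call. The difference between letters (-0.02) turned to 0.087 with quantile normalisation, 0.012 with median scaling, 0.0017 with normexp and 0.14 with array weights, and ran from -0.14 to 0.15 without single chambers, with an adjusted p of at least 0.864 throughout. The 0 probes that varied with DM13474P3 became 16 with quantile normalisation, for which the cause was not tested, and were 0 to 0 without single chambers. The 8L:16D difference of DM08519P3 (0.09) turned to -0.022 with slide as a block and ran from -0.32 to 0.55 without single chambers, and that of DM11875P2 (0.12) from -0.27 to 0.56, with adjusted p from 0.751 to 0.998. Depth limits the values of DM13474P3 in 4L:20D, 16L:8D and 20L:4D, where 15 of 18 arrays were not well above background.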
